A study of Trichoderma reesei with 17 samples.

Results

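The cytochrome P450 genes of the filamentous fungus Trichoderma reesei are described here, in the parental strain QM9414 and in the Δxyr1 mutant grown on cellulose, sophorose or glucose. They were taken by their annotation and a limit on reads, with earlier results of these data known. Of 9129 counted genes, 59 carried a deposited description that names P450, and 58 of these had at least 10 reads in at least 2 libraries. The gene left out, protein 3121, stayed under that limit. The members are written below as proteins with the IDs of the deposited tables, and in a pair of cases by the RefSeq locus tag, which ends in the same ID.

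Cytochrome P450s are heme enzymes that put an oxygen atom from molecular oxygen into a substrate. Most fungal P450s sit in the membrane of the endoplasmic reticulum and take their electrons from NADPH through a separate flavoprotein, the NADPH cytochrome P450 oxidoreductase. Fungi use them in ergosterol synthesis, in the tailoring of polyketides, peptides and terpenes, and in the breakdown of fatty acids, aromatic compounds and toxins. A family name such as CYP2 in a description is a class of sequence likeness, first set for animal enzymes, and does not give a substrate. Of the 58 members, 14 were described as CYP2, 4 as CYP3/CYP5/CYP6/CYP9, 3 as CYP4/CYP19/CYP26, 1 as CYP11/CYP12/CYP24/CYP27, 2 as group IV enzymes, 2 as the sterol desaturase ERG5 and 2 as reductases, and 30 carried no family. The reductase of the electron chain, protein 120154, is a partner of the P450s and not itself one, and protein 22464 was described as a P450 fused to its own reductase.

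RNA-seq counts of 17 libraries from mycelia were used, with 3 biological replicates in all groups but QM9414 in glucose, which had 2 (its replicate 2 was not analysed here). QM9414, labelled as wild type, is a cellulase-overproducing laboratory strain, and Δxyr1 is the deletion mutant of the gene for XYR1, the main activator of cellulase and xylanase genes. The carbon source was 1% cellulose, 1 mM sophorose, a soluble sugar that induces cellulases, or 2% glucose, which represses them, at 28°C with shaking at 200 rpm. Each library pools the RNA of several culture times, namely 24, 48 and 72 h (QM9414, cellulose), 8 and 24 h (Δxyr1, cellulose), 2, 4 and 6 h (sophorose, either strain) or 24 and 48 h (glucose, either strain). Some Δxyr1 mycelia were grown on glycerol for 24 h beforehand, those for cellulose by the methods of the study and those for sophorose by its GEO design text. In cellulose the strain difference therefore cannot be told apart from culture time, nor in these sources from a glycerol pre-culture of the mutant. Carbon sources differed in culture time too, in both strains. In bulk RNA of a culture, fewer expressing cells and less RNA per cell cannot be told apart.

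Levels are CPM, the counts of a gene divided by one-millionth of the library total, which was first adjusted by edgeR's TMM factors, given as mean ± SD or for each library in the order of its replicate number. Called genes are those with an adjusted p not above 0.05 whose log2 fold change is 1 or more in either direction, in 1 quasi-likelihood fit of edgeR over the 8506 genes tested. Library totals lay between 7014100 and 29056712 counts, and between 19466 and 48633 of them fell on the members. In cellulose, sophorose and glucose, in that order, xyr1 itself measured 622 ± 76.6, 2560 ± 315 (SD, n = 3 each) and 9.61 ± 0.569 CPM (SD, n = 2) in QM9414 against 10.9 ± 3.36, 86.2 ± 6.51 and 3.72 ± 2.42 CPM in Δxyr1 (SD, n = 3 each). Reads thus remained on xyr1 in the mutant, and each of its libraries lay below those of QM9414 in the same carbon source. Protein 48266 alone took between 1.40% and 35.0% of a library's counts, with the highest share in Δxyr1 sophorose replicate 3 and shares of 8.15% to 24.9% in Δxyr1 in glucose. When library totals were used without TMM factors, the all-gene median of the log2 fold change went from −0.02 to 0.18 between the strains in cellulose, from 0.03 to −0.36 in sophorose and from −0.00 to −0.60 in glucose, and changes are given relative to the TMM median. Of the 15 members called lower in cellulose than in glucose in Δxyr1, 7 had their highest QM9414 cellulose level in replicate 1, against 8 of the other 43. Any library of a group holds the highest level of some genes. The same count over all genes was not made, so whether QM9414 cellulose replicate 1 differed in this way was not tested.

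The map of the 58 levels shows P450 genes that were low in glucose and high elsewhere, and others with the reverse order. In QM9414, 34 members were called between cellulose and glucose, 22 higher and 12 lower in cellulose, where 32.8% of all genes tested were called, 19.2% higher and 13.6% lower. Between sophorose and glucose 36 were called, 26 higher and 10 lower, against 38.8% of all genes, 19.6% higher and 19.2% lower. The median log2 fold change of the members was 0.62 in cellulose and 0.99 in sophorose, both against glucose, and that of all genes was −0.01 and −0.02. Across all 9 comparisons of strains or carbon sources, 50 members (86.2%) were called for a carbon source at least once and 29 (50.0%) for the strain, against 64.6% and 31.3% of all genes tested.

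**Figure D1:**
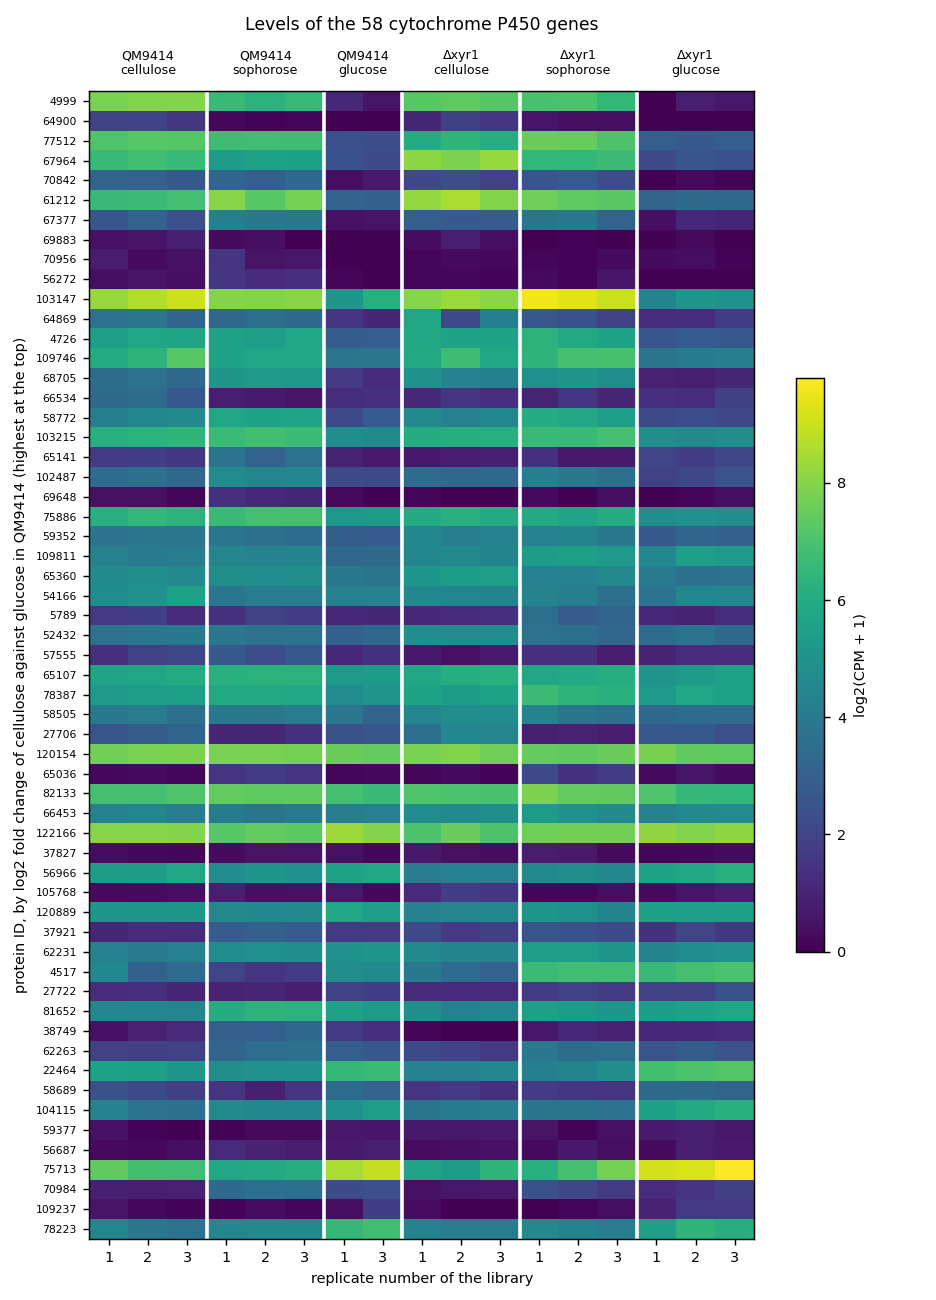
Level of each of the 58 P450 genes in each of the 17 libraries as log2(CPM + 1), with genes ordered by the log2 fold change of cellulose against glucose in QM9414. Proteins at the top, such as 4999 and 77512, are dark in both glucose groups, and proteins near the bottom, such as 75713 and 78223, are brightest there.

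Of the members whose description gives a role, the electron donor was the steadiest. Protein 120154, the NADPH cytochrome P450 oxidoreductase that feeds the microsomal P450s, stayed between 164 and 245 CPM in all 17 libraries and was called in none of the 9 comparisons. Its group means ran from 177 ± 10.3 CPM in Δxyr1 in sophorose (SD, n = 3) to 225 ± 20.4 in Δxyr1 in cellulose (SD, n = 3). The other members called in no comparison were proteins 62231, 65107, 78387 and 82133.

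ERG5 is the P450 that makes the C-22 double bond of ergosterol, the main sterol of fungal membranes. Its more abundant copy, protein 122166, stood at 256 ± 4.08 CPM in QM9414 and 149 ± 30.2 in Δxyr1 in cellulose, and at 161 ± 10.4 and 204 ± 8.38 in sophorose (SD, n = 3 each). It was thus lower in Δxyr1 in cellulose and higher in sophorose, by less than the fold threshold in both, while the difference between these strain effects was called (log2 −1.12, standard error 0.21, adjusted p = 0.00051 from edgeR), though not without scaling factors (log2 −0.51, adjusted p = 0.301). In glucose the strains overlapped, with 323 and 247 CPM in QM9414 and 283, 240.3 and 277 in Δxyr1.

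The second ERG5, protein 58689, had far fewer reads and was highest in glucose. It measured 9.75 and 7.50 CPM in QM9414 in glucose, 4.42, 3.64 and 2.58 in cellulose and 1.81, 0.830 and 1.80 in sophorose, and no glucose library overlapped with the others. Cellulose against glucose gave log2 −1.26 (standard error 0.26, adjusted p = 0.00073 from edgeR) and sophorose against glucose log2 −2.54 (standard error 0.28, adjusted p = 1.6e-06). In Δxyr1 it was −2.23 and −2.11, called in both.

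Protein 22464, the P450 fused to its reductase, was highest in glucose too. It measured 91.3 and 101 CPM in QM9414 in glucose, 49.99, 46.0 and 33.2 in cellulose and 27.5, 30.02 and 32.0 in sophorose. In Δxyr1 it measured 112, 127 and 144 in glucose, 19.4, 19.1 and 22.3 in cellulose and 17.6, 20.3 and 27.3 in sophorose. Fusions of this kind in other fungi hydroxylate fatty acids. Every glucose library lay above every other library of its strain, with log2 fold changes against glucose between −2.65 and −1.16, called in all 4 comparisons.

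Levels of different genes were compared per kilobase of annotated gene, introns included. Over all libraries, protein 103147 was the highest (186 CPM per kilobase), followed by 75713 (114), ERG5 122166 (106), 61212 (76.2) and 82133 (70.7). The median member stood near 9.00 CPM per kilobase. The leading member changed with the carbon source. Protein 103147 led in cellulose and sophorose in both strains, with 265 and 160 CPM per kilobase in QM9414 and 179 and 407 in Δxyr1. Protein 75713 led in glucose, with 203 in QM9414 and 324 in Δxyr1. The summed level of all members was 2581 ± 182 CPM in QM9414 in cellulose, 2318 ± 48.6 in sophorose (SD, n = 3 each) and 1787 ± 41.7 in glucose (SD, n = 2). In Δxyr1 it was 2467 ± 107, 2977 ± 193 and 2152 ± 240 (SD, n = 3 each). Without TMM factors the sums were 2821 ± 303, 2744 ± 105 (SD, n = 3 each) and 1897 ± 111 CPM (SD, n = 2) in QM9414. In Δxyr1 they were then 3082 ± 260, 2718 ± 1123 and 1521 ± 310 (SD, n = 3 each). The order of the strain means was thus reversed in each source. In Δxyr1 the mean in cellulose then lay above that in sophorose, but within the SD of the latter.

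The lower end of the scale held members whose tests rest on few reads. Group means reached 10 CPM or more somewhere for 39 members and stayed under 1 CPM everywhere for 5, proteins 37827, 56687, 59377, 69883 and TRIREDRAFT_70956.

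The largest fold change between carbon sources among the members was that of protein 4999, described only as a P450 monooxygenase. In QM9414 it measured 224, 246 and 249 CPM in cellulose and 97.8, 75.3 and 93.4 in sophorose, against 1.17 and 0.419 in glucose. In Δxyr1 it measured 152, 165 and 145 in cellulose, 124, 128 and 91.8 in sophorose and 0, 0.775 and 0.537 in glucose. The gene thus stayed at or under 1.17 CPM in glucose in both strains, and no glucose library came near the others. The log2 fold change of cellulose against glucose was 8.36 in QM9414 (standard error 0.53, adjusted p = 5e-09 from edgeR) and 8.67 in Δxyr1 (standard error 0.47, adjusted p = 3.3e-10). The strain difference of 4999 was not called in any carbon source.

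A set of further members was low in glucose and high on both inducing sources in both strains. Protein 67964 of the CYP2 class measured 98.4, 109 and 99.3 CPM in cellulose, 41.7, 47.1 and 45.0 in sophorose and 4.51 and 3.72 in glucose in QM9414. Cellulose against glucose gave a log2 fold change of 4.64 in QM9414 (standard error 0.20, adjusted p = 9.6e-11 from edgeR) and of 5.96 in Δxyr1 (standard error 0.17, adjusted p = 1.1e-12). It was also called lower in sophorose than in cellulose in both strains.

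Protein 77512, with no family given, measured 137, 151 and 146 CPM in cellulose, 106, 109 and 107 in sophorose and 4.24 and 4.14 in glucose in QM9414. For cellulose and sophorose against glucose the log2 fold changes were 5.11 and 4.68 (standard error 0.20 each, adjusted p = 6.4e-11 and 8.2e-11 from edgeR). In Δxyr1 the values were 3.49 and 4.71. Its glucose level was 4.19 ± 0.072 CPM in QM9414 (SD, n = 2) and 6.34 ± 0.622 in Δxyr1 (SD, n = 3), a difference that was not called.

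Protein 61212, a P450 monooxygenase, measured 98.4, 101 and 114 CPM in cellulose, 259, 152 and 214 in sophorose and 8.13 and 7.02 in glucose in QM9414. In Δxyr1 it measured 294, 369 and 246 CPM in cellulose and 198, 163 and 154 in sophorose. Sophorose thus gave the higher level in the first strain and cellulose in the second, without overlap, but the fold stayed under the threshold in both. Sophorose against glucose gave a log2 fold change of 4.79 in QM9414 (standard error 0.27, adjusted p = 1e-09 from edgeR), and that of cellulose against glucose was 5.16 in Δxyr1 (standard error 0.23, adjusted p = 4e-11).

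Protein 103147, the most abundant member, measured 312, 406 and 529.5 CPM in cellulose, 249, 240.0 and 267 in sophorose and 32.95 and 69.2 in glucose in QM9414. Cellulose and sophorose stood above glucose by 3.02 and 2.30 on the log2 scale in this strain and by 3.35 and 4.53 in Δxyr1. Other members with the same order of glucose below both inducing sources were 4726, 58772, 68705, 67377, TRIREDRAFT_70842, 102487, 103215, 109746 and 75886, each called in all 4 comparisons with glucose. Their log2 fold changes in QM9414 ran from 1.05 to 3.81 for cellulose against glucose and from 1.54 to 5.21 for sophorose against glucose. The lowest belonged to 75886, whose call in cellulose ended without QM9414 cellulose replicate 2 or QM9414 glucose replicate 1 (log2 0.96 and 0.99), and the highest to TRIREDRAFT_70842 in cellulose and 67377 in sophorose.

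Of these, protein 67377, an E-class P450 of group I, measured 0.361 and 0.419 CPM in QM9414 in glucose against 17.7, 13.5 and 13.9 in sophorose. TRIREDRAFT_70842 of the CYP2 class measured 0.271 and 0.629 CPM in glucose against 7.60, 7.43 and 5.78 in cellulose. In Δxyr1 in glucose only 3 reads fell on TRIREDRAFT_70842 over the 3 libraries, against 122 in cellulose, 48.5 times the level after scaling, where the 95% counting interval runs from 16.2 to 239. Such intervals cover counting error only.

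Some members had reads mainly in 1 inducing source. Protein 64900 of the CYP2 class measured 2.98, 2.93 and 1.97 CPM in QM9414 in cellulose, 0.157, 0.0639 and 0.120 in sophorose, and 0 and 0.0524 in glucose. Its log2 fold change of sophorose against cellulose was −4.46 in QM9414 (standard error 0.46, adjusted p = 6.5e-06 from edgeR) and −2.39 in Δxyr1. The group of QM9414 in glucose held 1 read on it, against 133 in cellulose, a ratio of 79.6 (interval 14.0 to 3167). In Δxyr1 in glucose no read was counted, and with a floor of 3 counts over the group its level in cellulose was at least 28.3-fold higher.

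Protein 65036, a P450 monooxygenase, showed the reverse. It measured 1.88, 2.24 and 1.86 CPM in QM9414 in sophorose and between 0.0903 and 0.214 in its cellulose and glucose libraries. In Δxyr1 it measured 3.65, 1.604 and 2.38 in sophorose and at most 0.485 elsewhere. Between sophorose and cellulose it changed by a log2 of 3.58 in QM9414 (standard error 0.41, adjusted p = 7.6e-06 from edgeR) and 4.09 in Δxyr1 (standard error 0.45, adjusted p = 2.8e-06).

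Protein 70984, a class I P450, was likewise highest in sophorose but stood above cellulose in glucose as well. In QM9414 it measured 9.27, 10.9 and 10.5 CPM in sophorose, 0.795, 0.786 and 0.861 in cellulose and 3.70 and 4.19 in glucose. On the log2 scale sophorose lay above cellulose by 3.64 (standard error 0.28, adjusted p = 1.5e-07 from edgeR), the highest among the members in QM9414. Between these sources 24 members were called in QM9414, 15 higher and 9 lower in sophorose, against 17.4% of all genes, 7.17% higher and 10.2% lower. Protein 27706 of the CYP2 class was among the lower ones, with 1.10, 1.09 and 1.74 CPM in sophorose and 4.77, 6.36 and 7.99 in cellulose (log2 −2.26, standard error 0.31, adjusted p = 3.9e-05).

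The members higher in glucose were fewer. Protein 75713 of the CYP2 class measured 371 and 478 CPM in QM9414 in glucose, 169, 112 and 111 in cellulose and 58.1, 60.1 and 67.5 in sophorose. In Δxyr1 it measured 554, 594 and 882 in glucose, 52.1, 41.1 and 83.5 in cellulose and 71.5, 117 and 216 in sophorose. Every glucose library lay above all others, and the log2 fold change against glucose was −1.70 and −2.78 in QM9414 and −3.52 and −2.33 in Δxyr1 for cellulose and sophorose, called in each. The highest cellulose and sophorose values belonged to QM9414 cellulose replicate 1 and Δxyr1 sophorose replicate 3, the libraries described above.

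Protein 78223 of the CYP3/CYP5/CYP6/CYP9 class measured 91.5 and 108 CPM in QM9414 in glucose and 11.6 to 24.8 CPM on the inducing sources. Its log2 fold change of cellulose against glucose was −2.67 (standard error 0.26, adjusted p = 5.2e-07 from edgeR). Protein 104115 of the CYP2 class was called lower in cellulose than in glucose in both strains, with 30.2 and 44.0 CPM in QM9414 in glucose against 19.2, 11.6 and 10.9 in cellulose. Protein 109237 had its QM9414 glucose mean set by replicate 3, with 0.271 and 2.46 CPM. Without replicate 3 its log2 fold changes against glucose in QM9414, −2.64 for cellulose and −3.21 for sophorose, were −0.21 and −0.73 and no longer called, while in Δxyr1 it measured 0.853, 2.13 and 2.07 CPM in glucose against a total of 2 reads in cellulose, a ratio of 27.2 (interval 7.24 to 230).

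In Δxyr1, 38 members were called between cellulose and glucose, 23 higher and 15 lower, against 44.2% of all genes, 23.0% higher and 21.2% lower. Between sophorose and glucose 30 were called, 21 higher and 9 lower, against 36.0%, 19.4% higher and 16.6% lower. Between sophorose and cellulose 18 were called, 11 higher and 7 lower, against 25.3%, 13.5% higher and 11.8% lower. Without scaling factors the splits in Δxyr1 were 31 higher and 9 lower, 29 and 8, and 6 and 11, in the same order, while the all-gene median moved to 0.84, 0.36 and −0.44.

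The plot of both strains' carbon responses shows how far they coincided. Of the 34 members called between cellulose and glucose in QM9414, 29 were also called in Δxyr1 (85.3%, and 76.3% of the 38 called there), where among all genes the shares were 79.2% and 58.8%. Of these 29, 18 were higher in both strains and 10 lower in both. For sophorose against glucose 23 were shared (63.9% of 36 and 76.7% of 30, against 69.6% and 75.0% among all genes), 16 higher and 6 lower in both. In each of these comparisons 1 member was called in opposite directions, and both times it was protein 65141 (its higher call in cellulose in QM9414 ended without QM9414 glucose replicate 3, with log2 1.28 and adjusted p = 0.0775). Across the 58 genes, which are not independent replicates and share the scaling of their libraries, Pearson's r between the log2 fold changes of the strains was 0.852 for cellulose against glucose, 0.767 for sophorose against glucose and 0.493 for sophorose against cellulose, and over all genes tested it was 0.767, 0.839 and 0.263. In the last of these 11 were shared (45.8% of 24 and 61.1% of 18, against 44.9% and 30.8% among all genes), and 4517 and 75713 were called in opposite directions. The lower call of 75713 in QM9414 (log2 −1.08) ended without QM9414 cellulose replicate 1 (−0.84) or QM9414 sophorose replicate 1 or 2 (−1.03 and −1.06), and its higher call in Δxyr1 (log2 1.19) ended without Δxyr1 sophorose replicate 3 (0.67) or Δxyr1 cellulose replicate 2 (0.99). Without scaling factors neither was called (−0.95 and 0.53).

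**Figure D2:**
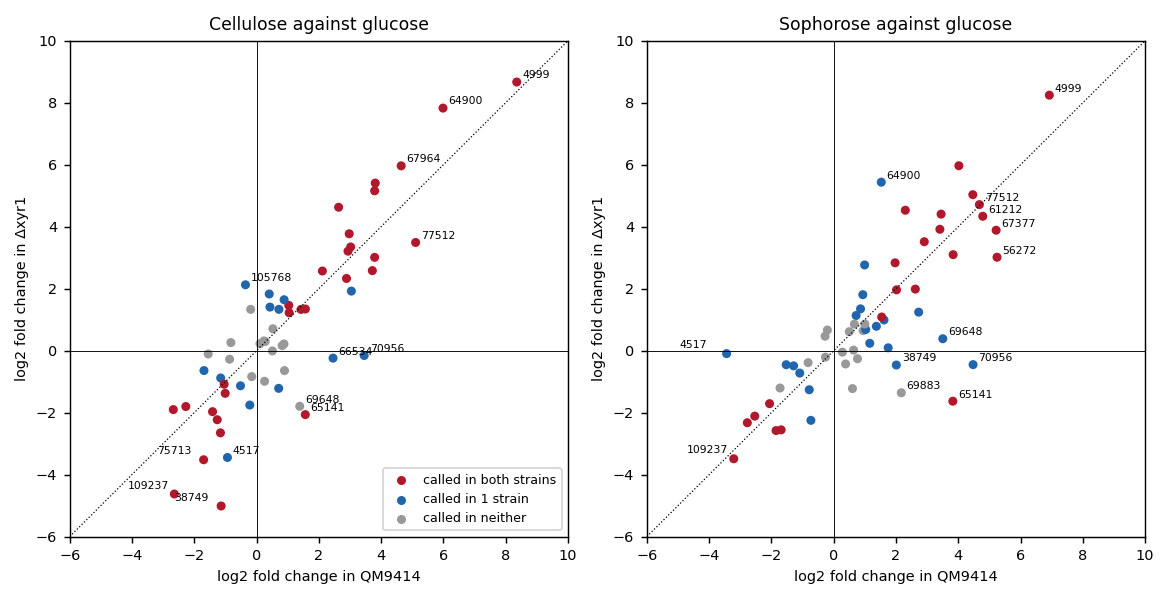
Log2 fold change of each P450 gene against glucose in QM9414 (horizontal) and Δxyr1 (vertical), for cellulose on the left and sophorose on the right, with the diagonal dotted and colours by the number of strains in which it was called. Protein 4999 lies at the upper right in both panels, and 65141 is the red point at the lower right, with 1.56 and −2.07 for cellulose and 3.82 and −1.63 for sophorose.

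The strains were compared within each carbon source, with the limits of culture time and glycerol pre-culture given above. In cellulose 16 members were called between the strains, 7 higher and 9 lower in Δxyr1, against 18.6% of all genes, 8.29% higher and 10.3% lower. In sophorose 19 were called, 11 higher and 8 lower, against 17.2%, 10.8% higher and 6.47% lower. In glucose 5 were called, 3 higher and 2 lower, against 2.60%, 1.88% higher and 0.717% lower. The median log2 fold change of the members was −0.10, −0.09 and 0.08 in the 3 sources, and that of all genes −0.02, 0.03 and −0.00. The split depended on the scaling, and without scaling factors it was 9 higher and 5 lower in cellulose, 3 and 14 in sophorose, and 2 and 6 in glucose. With upper-quartile factors it was 8 and 6 in cellulose and 3 and 1 in glucose. Without Δxyr1 cellulose replicate 1 the number called in cellulose was 10, and without Δxyr1 sophorose replicate 3 the number called in sophorose was 14.

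**Figure D3:**
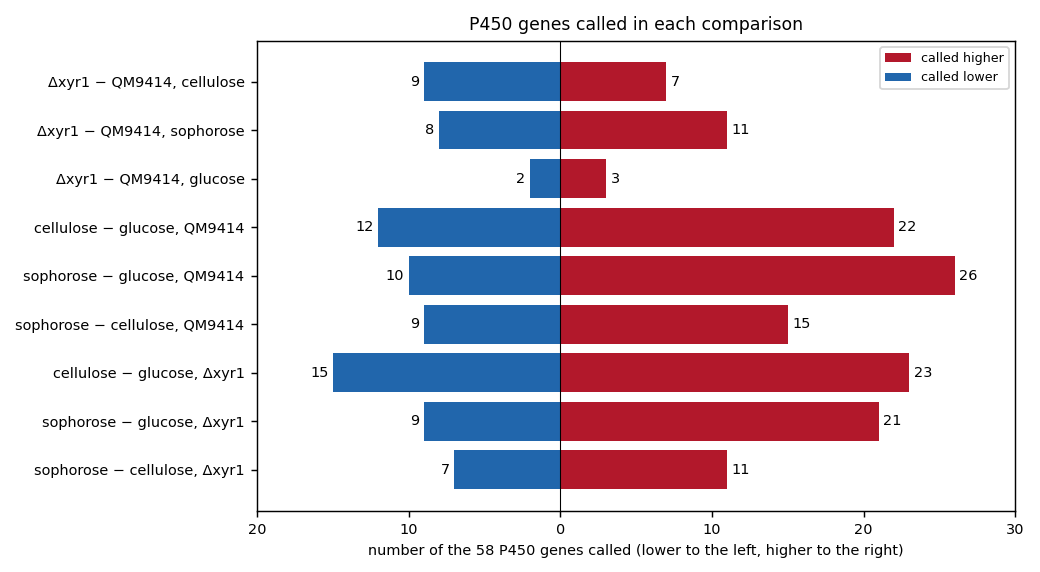
Number of the 58 P450 genes called higher (right, red) and lower (left, blue) in each comparison of strains or carbon sources, with the first-named group as the one that is higher or lower. The bars are longest for the comparisons with glucose and shortest for the strains in glucose, with 3 and 2 genes.

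Protein 4517, of the CYP4/CYP19/CYP26 class that in animals holds fatty acid and steroid hydroxylases, had the largest called strain difference among the members. In sophorose it measured 3.14, 1.79 and 2.22 CPM in QM9414 and 99.6, 109.7 and 111 in Δxyr1. In glucose it measured 27.7 and 23.7 in QM9414 and 95.9, 117 and 129 in Δxyr1, and in cellulose the strains overlapped with 22.9, 7.29 and 9.78 against 14.3, 9.82 and 7.50. In QM9414 the gene was thus lowest in sophorose, and in Δxyr1 its sophorose and glucose libraries overlapped. Between the strains the sophorose libraries differed by log2 5.50 (standard error 0.40, adjusted p = 1e-07 from edgeR) and the glucose libraries by log2 2.15 (standard error 0.38, adjusted p = 0.00628). The call in glucose ended without QM9414 glucose replicate 1 (log2 2.26, adjusted p = 0.0765). The strain effects differed between cellulose and sophorose (log2 −5.86, standard error 0.51, adjusted p = 7.1e-07) and between sophorose and glucose (log2 3.35, standard error 0.51, adjusted p = 0.00054).

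Protein 65141, a P450 monooxygenase, was called in opposite directions in the strains against glucose in both inducing sources. In QM9414 it measured 12.2, 7.35 and 12.3 CPM in sophorose, 2.19, 2.43 and 2.03 in cellulose and 0.903 and 0.629 in glucose. In Δxyr1 it measured 1.65, 0.577 and 0.648 in sophorose, 0.593, 0.687 and 0.815 in cellulose and 3.09, 2.42 and 3.38 in glucose. Sophorose was the highest source in the parental strain and glucose in the mutant, with no overlap between strains in any source. Δxyr1 differed from QM9414 by log2 −3.46 (standard error 0.32, adjusted p = 1.5e-06 from edgeR) for sophorose, −1.63 (standard error 0.38, adjusted p = 0.00281) for cellulose and 2.00 (standard error 0.41, adjusted p = 0.0123) for glucose. The last of these ended without QM9414 glucose replicate 1 or 3 (log2 2.23 and 1.75) and without scaling factors (log2 1.39, adjusted p = 0.0637). The strain effect in sophorose less that in glucose was −5.46 on the log2 scale (standard error 0.52, adjusted p = 8.6e-06).

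Protein 38749 of the CYP2 class was lower in Δxyr1 in both inducing sources. In sophorose it measured 6.75, 6.58 and 8.86 CPM in QM9414 and 0.551, 1.15 and 0.865 in Δxyr1 (log2 −3.09, standard error 0.35, adjusted p = 8.7e-06 from edgeR). In cellulose it measured 0.398, 0.857 and 1.29 in QM9414, 41 reads in all, and 1 read was counted in Δxyr1, a ratio of 28.7 (interval 4.87 to 1161). In glucose the strains measured 2.17 and 1.57 against 1.12, 1.16 and 1.31 CPM, a difference that was not called.

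Protein 57555, a P450 monooxygenase, was also lower in both, with 1.49, 2.72 and 3.20 CPM against 0.593, 0.343 and 0.652 in cellulose and 5.73, 4.02 and 5.33 against 1.51, 1.604 and 0.721 in sophorose. Its fold changes on the log2 scale were −2.23 (standard error 0.41, adjusted p = 0.00044 from edgeR) and −1.96 (standard error 0.32, adjusted p = 0.00023), in that order. With 65141 and 38749 it made up the 3 members called lower in both inducing sources. Only 1 member, protein 67964, was called higher in both.

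In cellulose the abundant member 67964 measured 280.0, 232 and 309 CPM in Δxyr1 against 98.4, 109 and 99.3 in QM9414, log2 1.42 (standard error 0.14, adjusted p = 8.8e-07 from edgeR). In sophorose it measured 87.1, 87.4 and 104 against 41.7, 47.1 and 45.0 (log2 1.06, standard error 0.14, adjusted p = 3.1e-05), just past the fold threshold. The call in sophorose ended without Δxyr1 sophorose replicate 3 (log2 0.95) and without scaling factors (log2 0.63). In glucose the strains overlapped at 4.51 and 3.72 against 3.68, 5.14 and 4.45 CPM.

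Of the other members called higher in Δxyr1 in cellulose, protein 61212 rose from 105 ± 8.53 to 303 ± 62.4 CPM (SD, n = 3 each), log2 1.53 (standard error 0.19, adjusted p = 1.2e-05 from edgeR), and did not overlap. In sophorose its strains overlapped, and the strain effects differed by 1.81 on the log2 scale (standard error 0.27, adjusted p = 7.3e-05). Protein 27706 measured 10.6, 22.0 and 21.0 CPM against 4.77, 6.36 and 7.99 (log2 1.50, standard error 0.26, adjusted p = 0.0003). Protein 105768, with no family given, was hardly expressed outside this group, with 1.30, 2.40 and 1.96 CPM in Δxyr1 in cellulose and at most 0.785 in every other library (log2 2.98, standard error 0.47, adjusted p = 0.00013).

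The 3 remaining higher calls in cellulose, proteins 68705, 37921 and 59377, each ended when certain single libraries were left out. Without Δxyr1 cellulose replicate 1 the log2 fold change of 68705 was 0.87 and that of 37921 was 0.98, under the threshold. Protein 59377 (log2 1.72), at or under 0.652 CPM in these libraries, lost its call without any of 5 of the 6 libraries. Without the other, QM9414 cellulose replicate 1, its log2 fold change was 3.85.

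**Figure D4:**
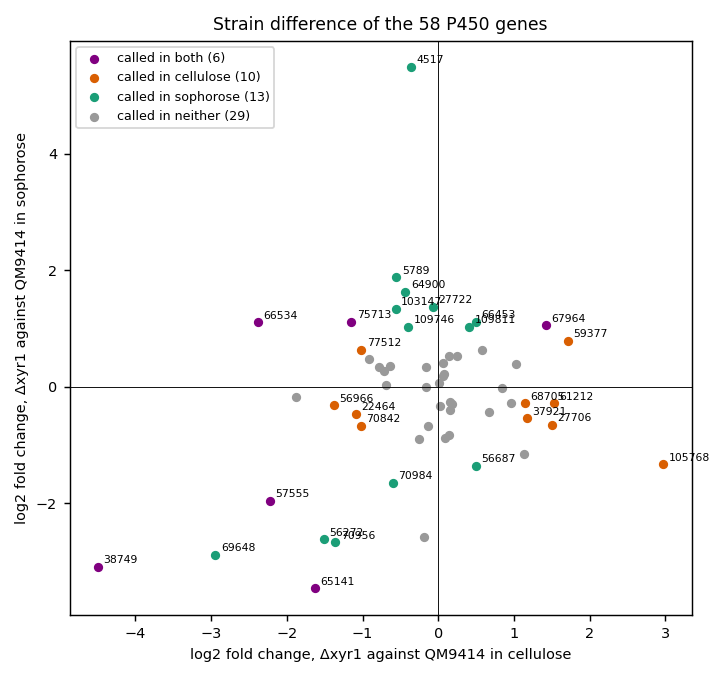
Log2 fold change of Δxyr1 against QM9414 for each of the 58 P450 genes in cellulose (horizontal) and sophorose (vertical), coloured by where it was called. The 6 genes called in both sources include 38749, 57555 and 65141 at the lower left and 67964 at the upper right, and 4517 stands alone at 5.50 in sophorose.

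Among the members lower in Δxyr1 in cellulose, protein 66534 of the CYP2 class measured 9.44, 9.93 and 5.23 CPM in QM9414 and 1.19, 1.92 and 1.47 in Δxyr1, log2 −2.39 (standard error 0.32, adjusted p = 2.4e-05 from edgeR). In the other sources it stayed at or under 2.61 CPM in both strains. Its call higher in sophorose (log2 1.11) ended without QM9414 sophorose replicate 2 or 3 or Δxyr1 sophorose replicate 2, where the log2 fold change was between 0.80 and 1.15. Protein 56966 measured 39.8, 41.4 and 55.0 CPM against 16.2, 18.0 and 18.0 (log2 −1.38, standard error 0.16, adjusted p = 7.6e-06). The fused enzyme 22464 measured 49.99, 46.0 and 33.2 CPM against 19.4, 19.1 and 22.3 (log2 −1.09), and its log2 fold change was under the threshold without QM9414 cellulose replicate 1 (−0.96), with upper-quartile factors (−0.98) and without scaling factors (−0.89).

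Proteins 77512, TRIREDRAFT_70842 and 75713 were the other lower calls in cellulose, with log2 fold changes of −1.02, −1.02 and −1.15. Each of them lost its call without some single libraries, with values between −0.98 and −0.95 for 77512, between −0.98 and −0.90 for TRIREDRAFT_70842 and between −1.07 and −0.92 for 75713. For 77512 these were QM9414 cellulose replicate 2 and Δxyr1 cellulose replicates 1 and 3, and for 75713 QM9414 cellulose replicate 1 and Δxyr1 cellulose replicates 1 and 2. For TRIREDRAFT_70842 these were QM9414 cellulose replicates 1 and 2 and Δxyr1 cellulose replicates 1 and 3. With upper-quartile factors 77512 and TRIREDRAFT_70842 were not called either (−0.91 and −0.92), and without scaling factors none of the 3 was (−0.95 to −0.82). The libraries of 77512 did not overlap, with 137, 151 and 146 CPM in QM9414 and 64.5, 83.0 and 67.1 in Δxyr1.

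In sophorose the most abundant member rose in the mutant. Protein 103147 measured 769, 654 and 496 CPM in Δxyr1 against 249, 240.0 and 267 in QM9414 (log2 1.34, standard error 0.27, adjusted p = 0.00093 from edgeR). In cellulose it measured 259, 315 and 270.2 against 312, 406 and 529.5, overlapping, and the strain effects differed between the inducing sources (log2 −1.91, standard error 0.37, adjusted p = 0.00083). Protein 5789 of the CYP3/CYP5/CYP6/CYP9 class measured 10.5, 5.97 and 7.93 CPM against 1.65, 2.68 and 2.22 (log2 1.88, standard error 0.26, adjusted p = 5.5e-05). It stayed at or under 2.50 CPM in cellulose and glucose.

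Protein 27722 of the CYP2 class measured 2.20, 2.76 and 2.16 CPM in Δxyr1 against 0.942, 1.09 and 0.719 in QM9414 in sophorose (log2 1.38, standard error 0.26, adjusted p = 0.0006 from edgeR). Further higher calls in sophorose lay near the threshold. Proteins 66453, 109746 and 109811 had log2 fold changes of 1.12, 1.03 and 1.03, and with 64900, 66534, 67964 and 75713 they lost the call without at least 1 library. For 66453 that was Δxyr1 sophorose replicate 1 (log2 0.92), and for 109811 replicate 2 of either strain (0.99 and 0.94). For 109746 that was QM9414 replicate 1 or Δxyr1 replicate 2 or 3 (0.91 to 0.98). For 75713 it was QM9414 replicate 1 (1.08, adjusted p = 0.0514) or Δxyr1 replicate 3 (0.59), and 64900, on 5 reads in QM9414, lost it without any of the 6. Without scaling factors the calls of these 7 members and of 27722 (log2 0.97, adjusted p = 0.0691) ended, with log2 fold changes between 0.52 and 1.20.

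Among the lower calls in sophorose, protein 70984 measured 4.41, 3.21 and 2.16 CPM in Δxyr1 against 9.27, 10.9 and 10.5 in QM9414 (log2 −1.65, standard error 0.24, adjusted p = 8.3e-05 from edgeR). Protein 56272, a P450 monooxygenase, measured 0.206, 0.0642 and 0.504 CPM against 1.96, 1.28 and 1.56 (log2 −2.62, standard error 0.46, adjusted p = 0.00035). Protein 69648, the one member of the CYP11/CYP12/CYP24/CYP27 class that in animals is mitochondrial, measured 0.206, 0 and 0.288 CPM against 1.49, 1.21 and 1.02 (log2 −2.88, standard error 0.66, adjusted p = 0.00264). TRIREDRAFT_70956 measured 0.138, 0.0642 and 0.216 CPM against 1.88, 0.447 and 0.539, where QM9414 sophorose replicate 1 stood apart (log2 −2.67, adjusted p = 0.00556). Protein 56687 (log2 −1.36) lost its call without any of 4 libraries. For these 4 low members a strain difference was called in sophorose alone, and the test of their strain effect in cellulose against that in sophorose passed for none of them.

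In glucose the strains differed in few members, and 1 of the 5 calls held without each of the libraries. That was protein 109811, with no family given, which measured 8.67 and 9.33 CPM in QM9414 and 22.9, 44.4 and 37.8 in Δxyr1 (log2 1.95, standard error 0.23, adjusted p = 0.00074 from edgeR). In the fit of the glucose libraries alone its adjusted p was 0.093. Proteins 4517 and 65141 were the other higher calls, given above. Protein 70984 was lower, at 1.39, 1.74 and 2.61 CPM against 3.70 and 4.19 (log2 −1.07, adjusted p = 0.0412), and lost the call without any of 4 libraries. TRIREDRAFT_70842 had 15 reads in QM9414 against 3 in Δxyr1, 6.98-fold after scaling (interval 1.97 to 37.6), and its call also ended without any of 4 libraries. In a fit of the glucose libraries alone, edgeR called 0 of 47 members tested, while 9 had an unadjusted p under 0.05, and DESeq2 over all groups called 5. Shares of all genes in these fits are not given, so these counts do not set the members apart from other genes.

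**Figure D5:**
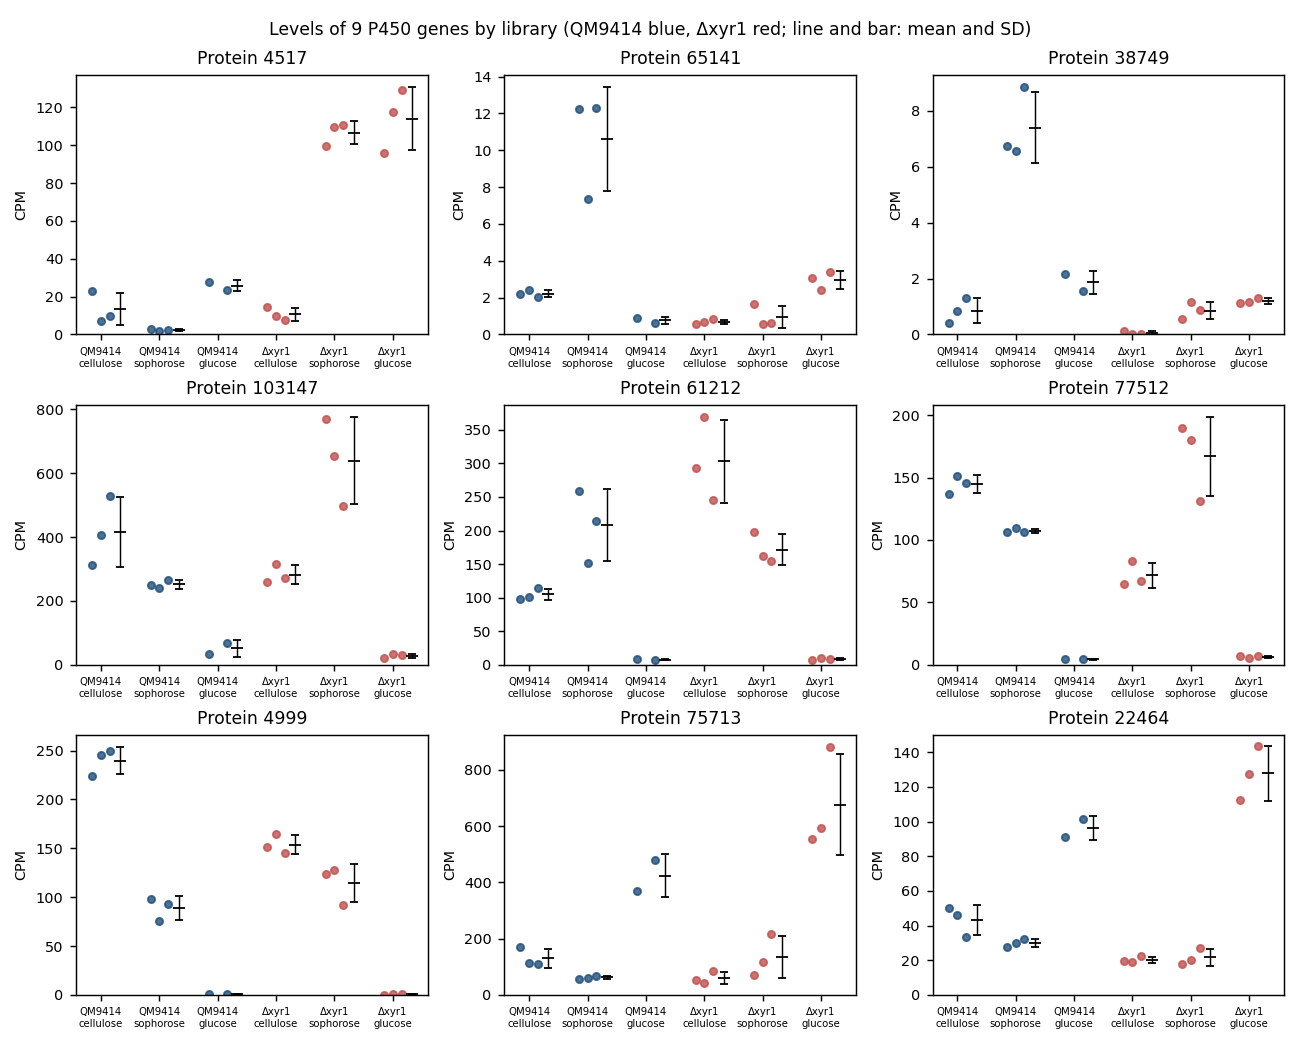
CPM of 9 P450 genes in each library, with QM9414 in blue, Δxyr1 in red and the mean and SD of each group in black; each panel has its own axis from 0. In the top row 4517 was called higher in Δxyr1 in sophorose and glucose but not called in cellulose. Beside it, the strain difference of 65141 turned with the carbon source, and 38749 was lower in Δxyr1 in both inducing sources. The middle row shows 3 abundant genes that were low in glucose and differed between the strains in 1 inducing source. The bottom row shows 4999, low in glucose, with 75713 and 22464, high in glucose.

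The difference of the strain effects between carbon sources was tested for each member. Between cellulose and sophorose 21 members were called, 9 with the higher strain effect in cellulose and 12 with the higher in sophorose, against 28.6% of all genes, 11.8% and 16.8%. Between cellulose and glucose 16 were called, 6 and 10, against 19.1%, 7.87% and 11.3%. Between sophorose and glucose 10 were called, 4 and 6, against 12.0%, 6.56% and 5.48%. Without scaling factors the splits were 15 and 6, 11 and 4, and 2 and 3. Across the 58 genes, Pearson's r between the strain effects in cellulose and sophorose was 0.269 (0.219 over all genes), and 6 members were called in both (37.5% of 16 and 31.6% of 19, against 30.1% and 32.5% among all genes), with 66534 and 75713 in opposite directions.

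Calls within 1 family class went both ways. Of the 14 CYP2 members, 4 were called higher and 4 lower in Δxyr1 in cellulose and 5 higher and 1 lower in sophorose, and 5 were higher and 5 lower in cellulose than in glucose in QM9414. Of all genes 8.29% were higher and 10.3% lower in the first of these comparisons, 10.8% and 6.47% in the second and 19.2% and 13.6% in the third. Their median log2 fold changes in these comparisons were 0.01, −0.03 and −0.21. Of the 3 members of the CYP4/CYP19/CYP26 class, 103215 and 64869 were called higher in both inducing sources than in glucose in QM9414, while 4517 was lower in sophorose. The calls of 64869 ended without QM9414 glucose replicate 3 (log2 2.54 and 2.35, adjusted p = 0.0804 and 0.0962). It also varied widely within a group, with 53.0, 3.43 and 17.8 CPM in Δxyr1 in cellulose.

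Genes of the pathways that serve P450s were counted in the same fit, by lists of words in their descriptions. Of 8 genes for electron donors (cytochrome b5, its reductase and like proteins, the members apart), 3 were called higher and none lower in Δxyr1 in sophorose (all genes 10.8% and 6.47%), with a median log2 fold change of 0.54 against 0.03 for all genes. These were the cytochrome b5 proteins 63813, from 57.2 ± 0.713 to 122 ± 25.2 CPM, and 64561, from 75.5 ± 10.5 to 174 ± 58.0 CPM, and the b5-like protein 108555, from 11.4 ± 1.27 to 22.8 ± 3.98 CPM (SD, n = 3 each). In cellulose 1 was called lower (all genes 10.3%), the NADH-cytochrome b5 reductase 79334, at 61.0 ± 11.9 in Δxyr1 against 137 ± 24.8 CPM (SD, n = 3 each). Without scaling factors none of the 8 was called in either source, and with RLE factors 2 were in sophorose.

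Of 8 genes of heme synthesis, which makes the prosthetic group of all P450s, 5 were called lower in sophorose than in glucose in QM9414 and none higher (all genes 19.2% and 19.6%), with a median log2 fold change of −1.11. In cellulose against glucose in QM9414, and in cellulose and sophorose against glucose in Δxyr1, 3 of the 8 were lower and none higher. The medians were −0.92, −0.80 and −0.90. In the same order 13.6%, 21.2% and 16.6% of all genes were lower and 19.2%, 23.0% and 19.4% higher. The heme genes called lower included ferrochelatase, protein 78582, which inserts the iron. In QM9414 it measured 92.9 ± 8.87 CPM in sophorose (SD, n = 3) against 271 ± 19.3 in glucose (SD, n = 2), log2 −1.55 (standard error 0.26, adjusted p = 1.0e-04 from edgeR). Without scaling factors the numbers lower were 4 in sophorose and 3 in cellulose in QM9414 and 2 and 1 in Δxyr1.

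Of 14 genes of ergosterol synthesis other than ERG5, 3 were called lower in Δxyr1 in cellulose (all genes 10.3%) and 2 higher in sophorose (all genes 10.8%). The strain effects of 9 of them were called lower in cellulose than in sophorose and none higher (all genes 16.8% and 11.8%), with a median of −1.04 against −0.10 for all genes. Both ERG5 members were called in the same direction, protein 58689 with a difference of −1.39 (standard error 0.40, adjusted p = 0.0106 from edgeR). Without scaling factors 2 of the 14 were called lower in that test, 2 were lower in Δxyr1 in cellulose and 1 was higher in sophorose, the median of the list was −0.47 against 0.49 for all genes, and 58689 was not called (log2 −0.78, adjusted p = 0.297).

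Of 21 backbone enzymes of secondary metabolism (polyketide synthases, nonribosomal peptide synthetases and terpene synthases, whose products P450s often modify), 12 were called higher and 2 lower in sophorose than in glucose in QM9414 (all genes 19.6% and 19.2%), with a median log2 fold change of 1.87. In Δxyr1 the same comparison gave 9 higher and 5 lower (all genes 19.4% and 16.6%), with a median of 0.73. Cellulose against glucose gave 11 higher and 1 lower in QM9414 (all genes 19.2% and 13.6%) and 10 and 3 in Δxyr1 (all genes 23.0% and 21.2%). In Δxyr1 against QM9414 in sophorose 4 were lower and none higher (all genes 6.47% and 10.8%), and without scaling factors 7 and none. Of the 58 members 5, or 8.62%, lay within 5 genes of such an enzyme in the annotation, where 2.28% of all annotated genes did. Protein 38749 lay 5316 bp from the peptide synthetase 60751, 59352 lay 11596 bp from the terpene synthase 59597, 59377 lay 10415 bp from the polyketide synthase 59315, 65036 lay 5861 bp from the polyketide synthase 65172, and 70984 lay 15049 bp from the peptide synthetase 71005.

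Of these neighbours, 65036 and its polyketide synthase 65172 had the same preferred source in QM9414. The synthase measured 4.59 ± 1.26 CPM in sophorose (SD, n = 3), 0.984 ± 0.132 in cellulose (SD, n = 3) and 0.176 ± 0.122 in glucose (SD, n = 2) in QM9414, and the P450 gene was highest in sophorose too. In Δxyr1 the synthase measured 2.39 ± 1.91 CPM in sophorose and 0.533 ± 0.159 in cellulose (SD, n = 3 each). Its lowest sophorose library there (0.385) lay under all those in cellulose. The pair of 70984 and 71005 had opposite sources, since 71005 measured 2.40 ± 0.271 CPM in cellulose and 0.138 ± 0.129 in sophorose (SD, n = 3 each). The peptide synthetase 60751 stayed between 0.799 and 1.53 CPM in all group means, whereas 38749, 3 genes away, ranged from 0.0395 to 7.40. Both had their highest mean in QM9414 in sophorose, where the libraries of 60751 overlapped with those in cellulose.

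Members also lay within 5 genes of each other in 3 places. How often annotated genes lie so near a P450 gene was not counted. Proteins 62231 and 78223 were adjacent, 1508 bp apart, and differed in their response: 78223 was several times higher in glucose than elsewhere in QM9414, and 62231 stayed between 15.9 and 33.2 CPM in that strain and was called nowhere. Proteins 56272 and 56687, 5011 bp apart, were both called higher in sophorose than in cellulose in QM9414 and lower in Δxyr1 in sophorose. Proteins 64900 and 65141, 22981 bp apart, had opposite preferred sources in QM9414, cellulose for the first and sophorose for the second.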

How the data were processed

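RNA-seq libraries from mycelia of 2 strains on 3 carbon sources were used, 17 in all. The authors aligned the reads with TopHat2 2.0.4 to the Trichoderma reesei 2.0 genome, kept unique alignments with SAMtools 0.1.19 and counted them per gene with HTSeq 0.6.0, and the deposited raw counts were the values analysed. A further deposited table of normalised counts, and log2 fold changes with adjusted p values that the authors computed with DESeq2 1.6.3, were not used, apart from the protein descriptions. Of 9129 IDs, 9072 matched RefSeq locus tags, all 58 members among them.

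Genes that reached 10 counts in 2 or more libraries were fitted with edgeR 4.0.16 (R 4.3.3, limma 3.58.1), using TMM factors, 6 groups and the quasi-likelihood test, with Benjamini-Hochberg adjustment over 8506 genes (common BCV 0.205). The fit was also run on simulated counts with the same mean profile in all libraries and changes in a single group. That setting does not test the scaling of the real libraries. Strains, carbon sources and the differences of strain effects were compared. The members and lists were chosen with earlier results of these data known. Named genes were the members with the largest calls without overlap in each comparison (up to 10 in each direction between strains, 5 between carbon sources, 6 for differences of strain effects), the 5 with the highest level per kilobase, those with a role in their description, and both that the supplementary tables of the study list. Other members were named after their values were seen. Lengths were those of the annotated gene in the RefSeq table (assembly v2.0), which was chosen after seeing the data. That table names no scaffolds, so neighbours were counted along runs of rising start positions.

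Alternatives were DESeq2 1.42.0, RLE, upper-quartile and no scaling factors, no filter, a filter of 1 CPM in 3 libraries, the compared groups alone, a replicate block, each library left out and no fold threshold. The gene lists of partner pathways were recomputed under the other scalings after seeing the data. The replicates are labelled as separate samples. No sequences were analysed here. Groups with 1 to 3 counts on a gene are given as ratios with exact 95% intervals, and groups with none against a floor of 3 counts over the group, which cover counting error only.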

Additional observations from a re-analysis of the deposited data

Results flagged for a closer look

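The strain difference of P450 genes differed between carbon sources in edgeR's test of that difference. The values that use cellulose cannot be told apart from the unequal culture times of the strains there, nor those of the cultures concerned from a glycerol pre-culture of the mutant. Between cellulose and sophorose it was called for 21 members (36.2%, against 28.6% of all genes). The largest differences on the log2 scale, cellulose less sophorose, were −5.86 for protein 4517, 4.31 for 105768, −3.50 for 66534, −2.43 for 5789, 2.28 for 64869 and −2.27 for 75713. For 64869 the libraries of Δxyr1 in cellulose spread from 3.43 to 53.0 CPM, and its call ended without any of 8 libraries, with 1.08 (adjusted p = 0.204) without Δxyr1 cellulose replicate 1, and also in the fit of the compared groups alone (adjusted p = 0.0577) and with the replicate block (adjusted p = 0.0561).

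Between cellulose and glucose it was called for 16 members (27.6%, against 19.1% of all genes), among them 38749 (−3.88), 65141 (−3.63), 66534 (−2.70), 4517 (−2.51), 105768 (2.48) and 68705 (1.99). The value of 38749 rests on 1 read in Δxyr1 in cellulose, and as a fitted value against so few reads it depends on the prior count. That of 105768 was not called in the fit of the compared groups alone (adjusted p = 0.0559) or with the replicate block (adjusted p = 0.0575), and ended without any of 7 libraries, with 1.55 (adjusted p = 0.359) without QM9414 glucose replicate 1.

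Between sophorose and glucose it was called for 10 members (17.2%, against 12.0% of all genes), among them 65141 (−5.46), TRIREDRAFT_70956 (−4.93), 4517 (3.35), 38749 (−2.47), 103147 (2.23) and 5789 (1.77). That of TRIREDRAFT_70956 rests on 1 read in QM9414 in glucose, with the same limit, and ended without any of 6 libraries (adjusted p from 0.0541 to 0.0958). That of 5789 ended without QM9414 glucose replicate 1 or 3 (adjusted p = 0.0581 and 0.0559) and without scaling factors (adjusted p = 0.067).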

How the results depend on the processing

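None of 2765 recomputed fold changes of named genes under the alternatives listed reversed its direction at a call, 2648 kept their side of the thresholds, 106 fell below and 11 rose above. Without a fold threshold the number of members called was 25 between the strains in cellulose, 32 in sophorose, 38 for sophorose against cellulose in QM9414 and 35 in Δxyr1. Shares of all genes are not given for the alternatives. The counts thus show how the calls depend on the processing and do not set the members apart from other genes. Without scaling factors the number of members called was 8 between the strains in glucose and 5 for the strain effect in sophorose less that in glucose. The summed CPM was then 2821, 2744 and 1897 in QM9414 in cellulose, sophorose and glucose and 3082, 2718 and 1521 in Δxyr1. The SD for Δxyr1 in sophorose was 1123 (n = 3), and the order of the strain means was the reverse of that with TMM factors in each source. Between the strains in glucose 0 were called in the fit of those libraries alone (9 at an unadjusted p under 0.05) and 3 with a replicate block. With single libraries left out, the calls between the strains ranged from 10 to 17 in cellulose, from 14 to 18 in sophorose and from 1 to 4 in glucose, and those of the strain effect in sophorose less that in glucose from 6 to 10. Only 9 of 16, 11 of 19 and 1 of 5 strain calls held without each library.

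Of 40 pairs of libraries with the same replicate number, 15 correlated over 0.1 in their deviations from the group means (range −0.202 to 0.328). Pairs with unlike numbers were not correlated, so these values cannot decide whether the numbers pair the samples. The main fit held no replicate block. The block ended 1, 1 and 2 strain calls, none of the 6 comparisons of carbon sources and 1 in each test of strain effects, and added none. QM9414 in glucose has 2 libraries, and members under 1 CPM rest on few reads.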
